A study of Homo sapiens with 30 samples.

Results

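The genes described here are the core components of the Hedgehog and GLI pathway: PTCH1, HHIP, SMO, SUFU, GLI1, GLI2 and GLI3. These 7 genes were selected by name from the 20367 gene symbols of a PRO-Seq count table, and each was represented by 1 RefSeq transcript. PRO-Seq (precision nuclear run-on sequencing) maps RNA polymerases that are actively transcribing, so its counts report nascent transcription and not steady-state mRNA. All libraries came from G401 cells, a malignant rhabdoid tumor (MRT) line that lacks SNF5, the SWI/SNF chromatin remodeling subunit encoded by SMARCB1. Pools of G418-selected G401 cells carried a TET-inducible lentiviral construct for EGFP (the control), OMOMYC (a dominant-negative form of MYC, OmoMYC below) or SNF5, and every pool, the EGFP pool included, received 1 ug/ml doxycycline for 24 h. The PRO-Seq and ATAC-Seq experiments had 3 replicates of each construct, and the MYC ChIP-Seq experiment had 2. The comparisons addressed which components of the pathway responded when SNF5 was returned to the cells, and which responded when MYC was inhibited.

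Hedgehog ligands act by binding PTCH1, a membrane protein that otherwise holds the signal transducer SMO inactive in the primary cilium. SMO activity releases the GLI transcription factors from SUFU, and from proteolytic processing, so that GLI2 and GLI3 switch from repressor to activator forms and GLI1, an activator, is transcribed. PTCH1, HHIP and GLI1 are themselves classical targets of the pathway, which gives it negative feedback through the first and the second and positive feedback through the third. The BAF (SWI/SNF) complex and SNF5 in particular have been linked to GLI1, and rhabdoid tumors to raised Hedgehog signaling.

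The induced gene was checked first. SMARCB1 gene bodies held 4, 1 and 6 reads in the EGFP libraries, 2, 5 and 4 in the OmoMYC libraries, and 2870, 4467 and 3440 in the SNF5 libraries. Each PRO-Seq library held between 28444943 and 46957634 gene body reads. VIM, a mesenchymal gene used as a marker of the line, had 6423 to 16148 gene body reads per library, while PTPRC and PECAM1, markers of blood and endothelial cells, had at most 1, ALB at most 8 and EPCAM, an epithelial marker, 14 to 58. Libraries that shared a replicate number deviated together from their construct means (r of 0.821 to 0.921 across genes in 9 pairs), and the number was a block in every fit. For GLI1, GLI3 and HHIP the library of replicate 3 stood well above the others of each construct, so the members' reads are given by replicate. In libraries from bulk cells, more cells transcribing a gene and more transcription per cell cannot be told apart.

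Promoter sequence is shown for 4 of the 5 members with a RefSeq promoter (GRCh38.p14) that overlapped an ATAC-Seq peak in at least 1 library, because peaks at these 4 starts differed between libraries. The fifth, SUFU, was open in all 9. Each line gives the 250 bases before the start, read 5′ to 3′ on the strand of the gene, and capitals mark the GLI binding motif GACCACCCA or its reverse complement TGGGTGGTC. Both strands were searched.
PTCH1 promoter, chr9:95509267-95509516, minus strand: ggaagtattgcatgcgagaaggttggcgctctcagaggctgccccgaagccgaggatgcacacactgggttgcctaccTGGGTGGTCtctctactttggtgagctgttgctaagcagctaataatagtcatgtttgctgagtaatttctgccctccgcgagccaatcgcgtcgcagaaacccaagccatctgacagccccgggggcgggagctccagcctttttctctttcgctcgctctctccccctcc
GLI2 promoter, chr2:120735618-120735867, plus strand: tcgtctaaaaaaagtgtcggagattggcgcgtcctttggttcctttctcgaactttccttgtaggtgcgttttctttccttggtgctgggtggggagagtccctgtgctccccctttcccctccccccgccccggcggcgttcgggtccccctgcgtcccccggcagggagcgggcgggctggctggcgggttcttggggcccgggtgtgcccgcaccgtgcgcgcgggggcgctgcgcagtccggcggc
HHIP promoter, chr4:144645906-144646155, plus strand: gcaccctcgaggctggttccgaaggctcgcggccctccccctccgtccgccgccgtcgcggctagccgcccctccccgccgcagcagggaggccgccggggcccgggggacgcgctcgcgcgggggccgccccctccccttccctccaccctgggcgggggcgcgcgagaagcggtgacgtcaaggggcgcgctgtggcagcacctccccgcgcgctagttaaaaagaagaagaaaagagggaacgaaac
SMO promoter, chr7:129188383-129188632, plus strand: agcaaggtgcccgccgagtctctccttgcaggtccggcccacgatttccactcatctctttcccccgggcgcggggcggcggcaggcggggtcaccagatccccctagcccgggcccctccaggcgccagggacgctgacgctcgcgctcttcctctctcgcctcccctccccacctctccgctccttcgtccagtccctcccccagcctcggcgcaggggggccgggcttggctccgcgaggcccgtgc
Only the PTCH1 promoter among the 10 RefSeq starts listed for PTCH1, GLI2, SMO, SUFU and HHIP held a GLI motif, at position -172 from the start (chr9:95509430-95509438). Of all 35116 RefSeq promoters, 0.199% held it in the same window. The E-box CACGTG, the motif that MYC and MAX bind, was in none of the 10 and in 6.34% of all promoters. GC content of the 4 windows was 57.2% for PTCH1, 68.8% for GLI2, 74.8% for HHIP and 73.6% for SMO. No promoter sequence was at hand for GLI1 and GLI3, so their starts were not searched for either motif.

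In gene bodies (1 kb past the start to the end of the gene), 5 of the 7 members changed with SNF5: GLI2, HHIP, GLI3 and PTCH1 rose, and GLI1 fell. Across the table, 34.5% of 15060 genes passed the same test (edgeR's quasi-likelihood test, Benjamini-Hochberg adjusted p under 0.05), 17.2% with higher and 17.3% with lower counts. With OmoMYC 1 member, GLI2, passed, beside 8.96% of all genes (4.2% higher, 4.76% lower). The direct test of SNF5 against OmoMYC called the same 5 members in the same directions, beside 19.2% of all genes (11.5% higher, 7.67% lower). The median log2 fold change of the 7 members was 0.49 for SNF5 against EGFP, -0.01 for OmoMYC against EGFP and 0.56 for SNF5 against OmoMYC, beside medians over all tested genes of -0.03, -0.00 and -0.01. Both comparisons with EGFP use the same 3 control libraries. Both SNF5 comparisons use the same 3 SNF5 libraries, so the repeated calls are not independent evidence.

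Levels between genes are compared below as RPKM, gene body reads scaled for gene body length and library size. In EGFP cells PTCH1 was the most densely transcribed member at 1.72 ± 0.434 RPKM (SD, n = 3), followed by SMO at 1.17 ± 0.250, GLI1 at 1.06 ± 0.727 and SUFU at 0.851 ± 0.118. The ranges of these 4 genes overlapped between neighbors in that order. The counted PTCH1 gene body contains the canonical PTCH1 start, so any polymerase paused there is part of its value. HHIP (0.0208 ± 0.0323), GLI2 (0.00817 ± 0.00208) and GLI3 (0.00296 ± 0.00188) lay far below these 4, and the range of HHIP overlapped those of GLI2 and GLI3, which did not overlap each other. ALB, a marker of another cell type, was at 0.00667 ± 0.00536 RPKM in EGFP cells. Its range overlapped those of HHIP, GLI2 and GLI3. The plot of gene body density by library shows all 63 values of the members.

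**Figure D1:**
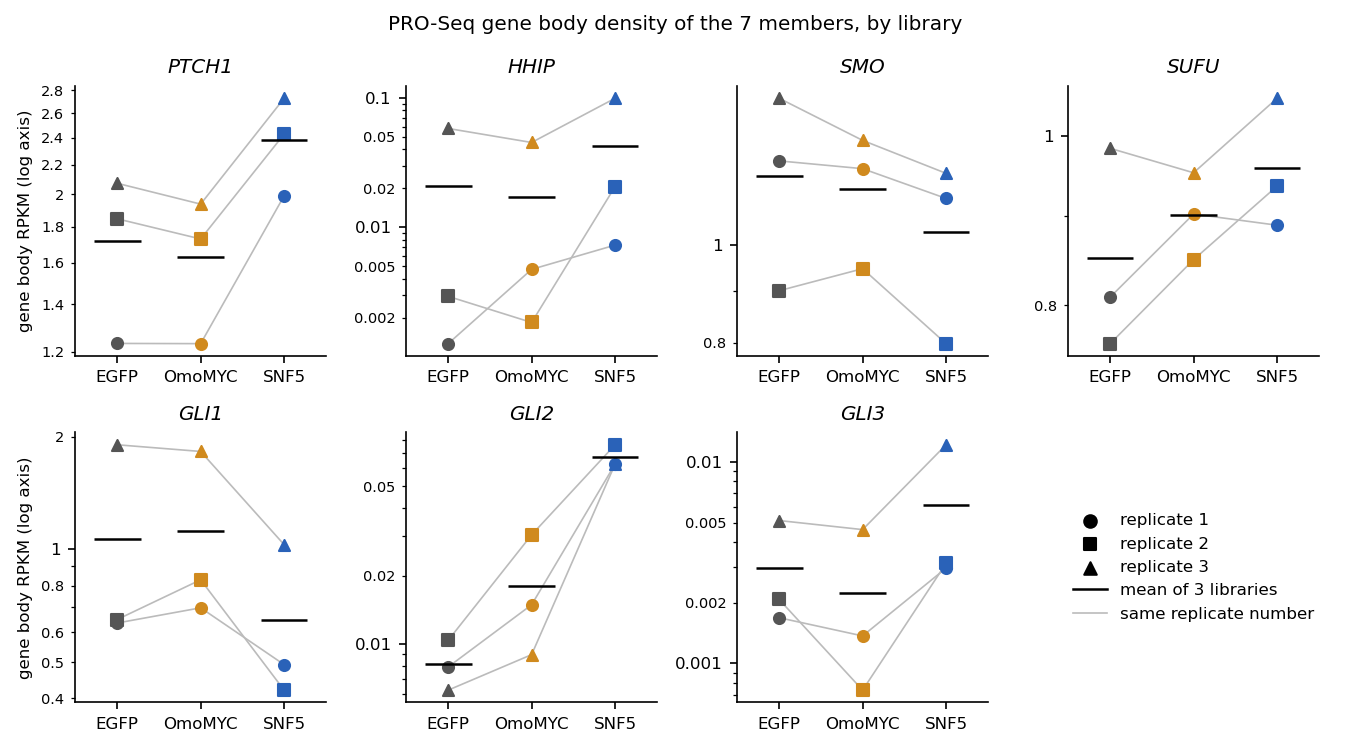
PRO-Seq gene body density (RPKM, log axis) of the 7 members in each library; symbols mark the replicate number, gray lines join libraries with the same number, and black bars are means of 3 libraries. GLI2 reached 0.0626 to 0.0763 RPKM in the SNF5 libraries, above all EGFP and OmoMYC libraries, and for GLI1, GLI3 and HHIP replicate 3 is the highest library of each construct.

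GLI2, the main activator of the pathway's early response, showed the greatest response of the members. Its gene body held 53, 60 and 56 reads in EGFP replicates 1 to 3, 100, 175 and 81 in OmoMYC, and 491, 532 and 542 in SNF5. The SNF5 libraries stood apart from all others, and each OmoMYC library was above its EGFP counterpart. Within replicate numbers GLI2 rose 7.92-, 7.35- and 10.0-fold with SNF5 and was 1.89-, 2.93- and 1.44-fold higher with OmoMYC. The fitted log2 fold change was 3.08 ± 0.261 (SE; adjusted p = 7e-05) for SNF5 and 1.05 ± 0.268 (adjusted p = 0.044) for OmoMYC, and SNF5 exceeded OmoMYC by 2.03 ± 0.244 (adjusted p = 0.00064). GLI2 with SNF5 against EGFP was called under every alternative run (log2 fold change 2.8 to 3.33 when libraries were left out). The OmoMYC call was lost on leaving out any EGFP library, OmoMYC replicate 1 or 2, or SNF5 replicate 1 or 2, with adjusted p up to 0.24, and on leaving out all of replicate 1 or 2 (adjusted p = 0.43 and 0.45). Over all omissions the log2 fold change was 0.67 to 1.34. Of all tested genes, 98.9% had a lower log2 fold change with SNF5 than GLI2. Even so, GLI2 in SNF5 cells remained at 0.0672 ± 0.00789 RPKM, far below the density of PTCH1, SMO or SUFU.

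GLI1, the pathway's constitutive activator and its most used readout, moved the other way. It had 244, 215 and 977 gene body reads in the EGFP libraries, 268, 273 and 944 in the OmoMYC libraries, and 221, 168 and 510 in the SNF5 libraries. As density this was 0.636, 0.649 and 1.90 RPKM in EGFP and 0.492, 0.421 and 1.03 in SNF5, so the groups overlapped through replicate 3 although each SNF5 library was the lowest of its replicate number. GLI1 fell to 0.774, 0.648 and 0.541 of EGFP within replicate numbers (log2 fold change -0.64 ± 0.136, adjusted p = 0.007). Against OmoMYC it fell by 0.77 on the log2 scale (SE 0.136, adjusted p = 0.0047), and OmoMYC against EGFP gave 0.13 ± 0.133 (adjusted p = 0.56). Only 2.09% of tested genes had a lower log2 fold change with SNF5. Without replicate 2 of all constructs neither SNF5 call held (adjusted p = 0.065 and 0.08).

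GLI3, which acts mostly as the pathway's repressor, was transcribed at a very low level. Beside 0.00543 ± 0.00556 RPKM for ALB, GLI3 stood at 0.00609 ± 0.00526 in SNF5 cells. Its gene body, 275070 bases long, held 16, 17 and 65 reads in EGFP, 13, 6 and 59 in OmoMYC, and 33, 31 and 149 in SNF5. The SNF5 library was the highest of each replicate number, and replicate 3 was the highest of each construct. Folds with SNF5 were 1.76, 1.51 and 2.38 (log2 fold change 0.94 ± 0.304, adjusted p = 0.039). The value with OmoMYC was -0.49 ± 0.332 (adjusted p = 0.36), and SNF5 exceeded OmoMYC by 1.43 ± 0.312 (adjusted p = 0.012). The call against EGFP was lost on leaving out any EGFP or SNF5 library or OmoMYC replicate 1 (adjusted p up to 0.17, without EGFP replicate 3, where the log2 fold change was 0.68). It was also lost without any 1 replicate number (adjusted p of 0.094 to 0.18), under DESeq2 (adjusted p = 0.082) and with EGFP and SNF5 fitted alone (adjusted p = 0.072). The call against OmoMYC was lost without OmoMYC replicate 2 (adjusted p = 0.067) and without all of replicate 1 or 2 (adjusted p = 0.079 and 0.089).

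PTCH1, the receptor for Hedgehog ligands and the inhibitor of SMO, gave the most evenly replicated rise. It had 3104, 4008 and 6979 reads in EGFP, 3103, 3734 and 6568 in OmoMYC, and 5856, 6360 and 8866 in SNF5. In RPKM this was 1.23, 1.85 and 2.07 for EGFP against 1.99, 2.43 and 2.73 for SNF5, with 1 SNF5 library below the highest EGFP library. Folds with SNF5 were 1.61, 1.32 and 1.32 within replicate numbers, and the log2 fold change was 0.49 ± 0.066 (adjusted p = 0.00077). OmoMYC left PTCH1 at -0.07 ± 0.066 (adjusted p = 0.55), and SNF5 exceeded OmoMYC by 0.56 ± 0.066 (adjusted p = 0.0006). Both SNF5 calls held whichever library or replicate number was omitted, with log2 fold changes of 0.39 to 0.56 against EGFP.

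HHIP, a membrane protein that binds and sequesters Hedgehog ligands, was close to silent in 2 of the 3 replicates. It held 4, 8 and 246 reads in EGFP, 15, 5 and 193 in OmoMYC, and 27, 68 and 406 in SNF5. Replicate 3 exceeded replicates 1 and 2 in every construct, and within each number SNF5 was highest. Folds with SNF5 were 5.77, 7.05 and 1.71, and the fitted log2 fold change was 1.57 ± 0.472 (adjusted p = 0.03). When libraries were left out it ranged from 1.04, without SNF5 replicate 2, to 2.67. The call was lost without EGFP replicate 1 or 2, SNF5 replicate 1 or 2, OmoMYC replicate 3, or all of replicate 1 or 2 (adjusted p of 0.051 to 0.13). OmoMYC gave -0.01 ± 0.513 (adjusted p = 0.99), and SNF5 against OmoMYC gave 1.59 ± 0.483 (adjusted p = 0.049), a call lost in 11 of 17 alternatives: without replicate 1 or 2 of EGFP or of SNF5, replicate 2 or 3 of OmoMYC, or all of replicate 1 or 2 (adjusted p up to 0.26), without the filter or the block, and with these constructs fitted alone.

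SMO, the signal transducer, and SUFU, the cytoplasmic inhibitor of the GLI proteins, did not pass the gene body test in any comparison. SMO had 988, 634 and 1525 reads in EGFP, 971, 663 and 1395 in OmoMYC, and 1061, 678 and 1240 in SNF5. Scaled for depth, SNF5 stood at 0.918, 0.886 and 0.843 of EGFP, and the log2 fold change was -0.18 ± 0.077 (adjusted p = 0.095). SUFU had 3584, 2907 and 5838 reads in EGFP, 4001, 3230 and 5691 in OmoMYC, and 4610, 4317 and 6016 in SNF5. Its SNF5 level was 1.10, 1.23 and 1.07 times that of EGFP (log2 fold change 0.18 ± 0.063, adjusted p = 0.056). SUFU passed with SNF5 when EGFP replicate 3 (0.23, adjusted p = 0.023) or OmoMYC replicate 3 (0.18, adjusted p = 0.045) was left out. With all of replicate 3 omitted it passed in both SNF5 (0.21, adjusted p = 0.0019) and OmoMYC (0.15, adjusted p = 0.02).

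**Figure D2:**
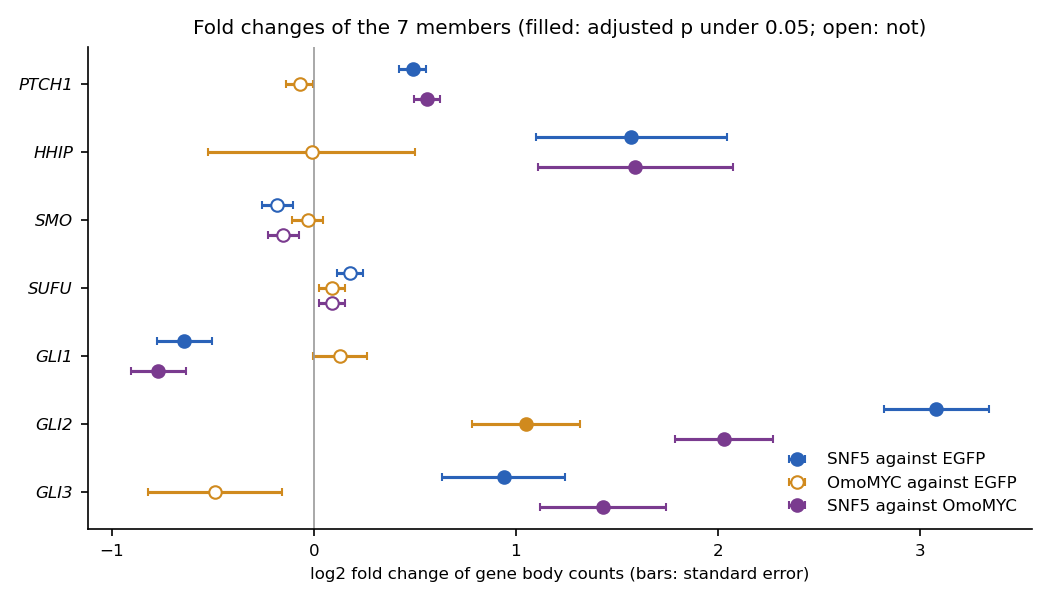
Log2 fold changes of gene body counts for the 7 members in 3 comparisons, with standard errors; filled points passed an adjusted p of 0.05. SNF5 against EGFP (blue) ranges from -0.64 for GLI1 to 3.08 for GLI2, and with OmoMYC against EGFP (orange) only GLI2 is filled.

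These calls rest on comparing libraries of the same replicate number. Without the number as a block, GLI2 with SNF5 against EGFP (adjusted p = 0.023) was the only call among the members in the 3 comparisons. PTCH1 was then at an adjusted p of 0.41 and GLI1 at 0.65, with log2 fold changes of 0.47 and -0.72.

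Promoter-proximal polymerase was counted in the 50-base window with most reads within 500 bases of the listed start. Only GLI1, SMO and SUFU reached the minimum mean of 10 reads there, and none of the 3 was called in promoter-proximal counts or in the pausing index (promoter-proximal over gene body density) in any comparison. The share of all genes called was 4.31% in promoter-proximal counts and 3.74% in pausing index for SNF5 against EGFP, 1.65% and 2.27% for OmoMYC against EGFP, and 0.836% and 1.23% for SNF5 against OmoMYC. Of the promoter-proximal calls over all genes, 61.0%, 91.4% and 57.4% were higher in these comparisons, and 43.6%, 52.3% and 73.3% with scaling factors taken from promoter-proximal counts. Among GLI1, SMO and SUFU, SMO had the most promoter-proximal reads, with 41, 564 and 794 in EGFP and 74, 1005 and 693 in SNF5. Replicate 1 libraries had fewer such reads in all constructs. GLI1 had 6, 9 and 15 promoter-proximal reads in EGFP and 6, 8 and 16 in SNF5, and its pausing index differed by 0.56 ± 0.433 on the log2 scale (adjusted p = 0.52).

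SUFU came nearest to a change in pausing. It held 6, 86 and 131 promoter-proximal reads in EGFP, 13, 218 and 134 in OmoMYC, and 13, 108 and 98 in SNF5, so the OmoMYC count was the highest, or level with SNF5, in each number. The log2 difference in its pausing index was 0.65 ± 0.267 for OmoMYC against EGFP (adjusted p = 0.2) and -0.88 ± 0.265 for SNF5 against OmoMYC (adjusted p = 0.079). Fitted on SNF5 and OmoMYC libraries alone, the second passed (-0.89, adjusted p = 0.032). It rested on replicate 2: omitting that number brought the value to -0.43 (adjusted p = 0.97), and omitting replicate 3 to -1.16 (adjusted p = 0.0062). The OmoMYC value likewise ranged from 0.24 without OmoMYC replicate 2 to 1.12 without replicate 3 (adjusted p = 0.94 and 0.0082).

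For PTCH1 and GLI2 the counted windows lay away from the start that GENCODE marks as canonical. The PTCH1 transcript in the table (NM_001083602, chr9:98205264-98279247 in hg19) begins 7699 bases upstream of the canonical start, and at most 14 reads fell in its promoter-proximal window. That of GLI2 (NM_005270, chr2:121554867-121750229) begins 61423 bases downstream of the canonical start, and at most 2 reads fell in its window. Pausing at the canonical starts of these genes was therefore not measured, and the GLI2 gene body value leaves out the part of the gene before its listed start. For the other 5 members the listed and canonical starts were 10 to 350 bases apart.

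Chromatin accessibility was followed by ATAC-Seq, in which a transposase cuts open DNA. Merging the peaks of all 9 libraries gave 40005 sites, of which 41 lay within the members' genes or 50 kb on either side. A site was counted as gained when all 3 libraries of a construct and none of the 3 EGFP libraries had a peak. Of the 41 sites, 2 were gained with SNF5, 1 at GLI2 and 1 at GLI3, beside 9.09% of all sites, and none was gained with OmoMYC, beside 0.0275%. No site at these loci was lost by the reverse rule. Peak lists were longer with SNF5 (22722 to 33596 peaks) than with EGFP (9208 to 17817) or OmoMYC (7260 to 23684). With each list held to its 7260 strongest peaks, none of 13 remaining sites at these loci was gained with SNF5, beside 180 of 13544 in all.

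The gained GLI3 site (chr7:42237024-42237369, GRCh38) covered the canonical GLI3 start, its center 13 bases into the gene. Its peaks had MACS2 fold enrichments of 4.09, 5.21 and 4.86 in SNF5 replicates 1 to 3, and no EGFP or OmoMYC library had a peak there. The gained GLI2 site (chr2:120695678-120695958) lay 40 kb upstream of the canonical start, with fold enrichments of 7.40, 6.35 and 4.80 in SNF5 and 7.16 in OmoMYC replicate 2. The nearest coding start to that site was that of GLI2 itself. At the GLI2 start (chr2:120735779-120736122), which overlaps the promoter sequence printed above, SNF5 replicates 1 and 2, EGFP replicate 2 and OmoMYC replicate 2 had peaks. EGFP replicate 2 and OmoMYC replicate 2 had the longest peak lists of their constructs.

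At the starts of HHIP and SMO, peaks were called only in the 3 libraries with the longest peak lists. These were SNF5 replicates 1 and 2 and OmoMYC replicate 2, with 33596, 26604 and 23684 peaks. The HHIP start (chr4:144646034-144646320) had peaks in SNF5 replicates 1 and 2 and in OmoMYC replicate 2, with fold enrichments of 4.90, 5.21 and 5.51. The SMO start (chr7:129188300-129188677) had peaks in the same 3 libraries, at 4.45, 4.84 and 5.56. No EGFP library had a peak at either, and no site within 50 kb of HHIP had one in any EGFP library. Sites with peaks in at least 2 of 3 SNF5 libraries and no EGFP library were also counted. They were 6 of the 41 sites, at GLI1, GLI2, GLI3, SMO and HHIP, beside 8916 of 40005 in all.

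PTCH1 chromatin was open in the control. A site 1795 bases upstream of the canonical start (center; chr9:95510741-95511382) had peaks in all 9 libraries, with fold enrichments of 3.83 to 5.73. The site over the start (chr9:95509263-95509475), which holds the GLI motif of the printed promoter, had peaks in EGFP replicates 1 and 2 (3.69 and 3.87) and SNF5 replicate 1 (3.60) and in no OmoMYC library. The SUFU start (chr10:102503719-102504052) was likewise open in all 9 libraries. At GLI1, none of the 4 sites within 4 kb of the start was present in all 3 libraries of any construct. The map of peaks at the GLI2, GLI3, PTCH1 and HHIP loci shows their positions.

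**Figure D3:**
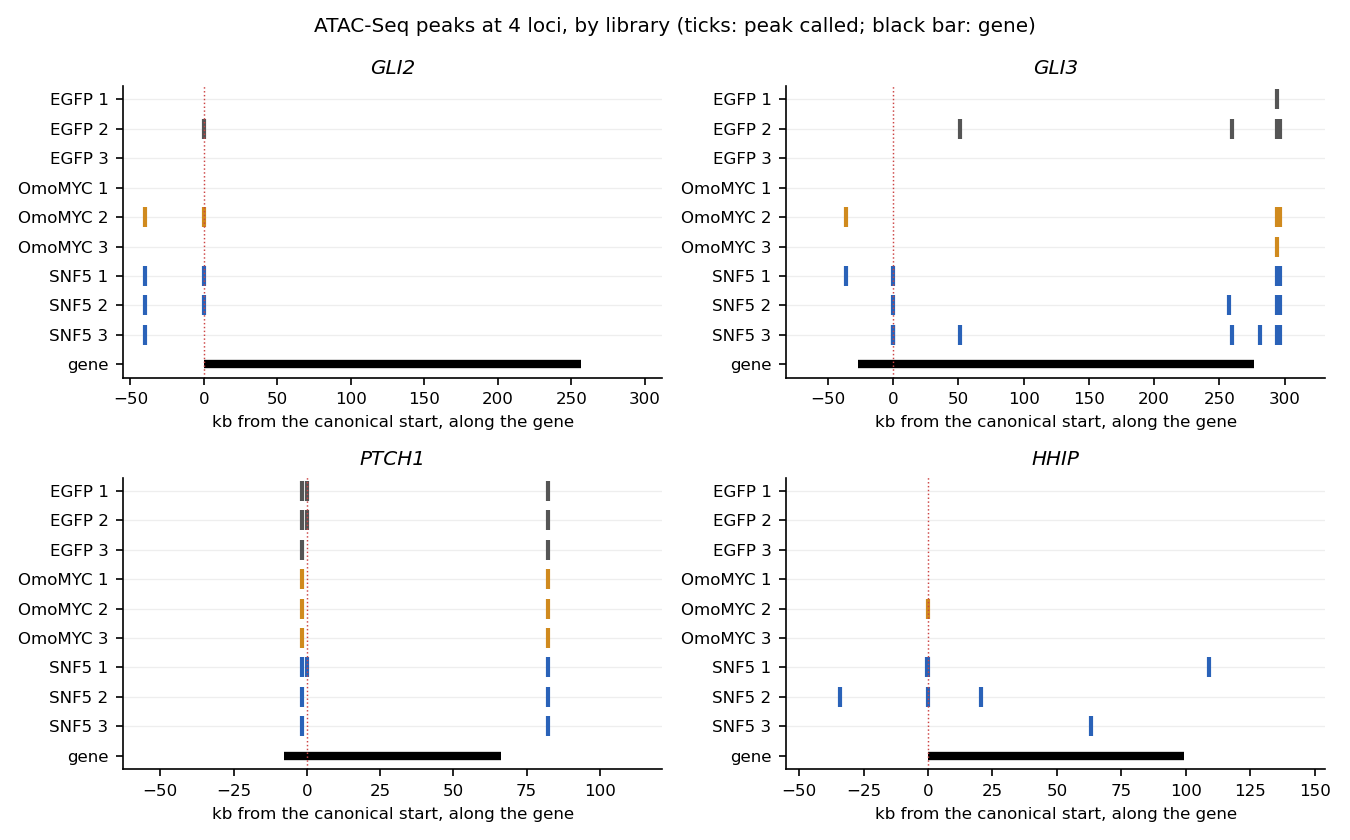
ATAC-Seq peaks called in each of 9 libraries at 4 loci, by distance from the canonical start (kb, along the gene); the black bar is the gene with all its RefSeq transcripts. GLI3 has a peak at its start in all 3 SNF5 libraries and no other, and PTCH1 has one just upstream of its start in all 9.

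MYC ChIP-Seq peaks were counted around the same genes. The lists held 940 and 5396 peaks for EGFP, 137 and 27 for SNF5 and none for OmoMYC. Within 50 kb of the 7 genes there were 8 peaks, all in EGFP libraries (1 in replicate 1 and 7 in replicate 2), and 7 of the 8 were nearest to the start of another gene (FANCC, R3HDM2, MARS1, MBD6, AHCYL2 or TRIM8). The exception lay in PTCH1 (chr9:98273146-98273922, hg19; intronic to its longer transcripts), with its summit 2115 bases upstream of the canonical start and a fold enrichment of 4.84 in EGFP replicate 2 only. No peak summit lay within 1 kb of a start of any member.

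Other components of the pathway, 65 genes of ligand release, co-receptors, signal relay, cilium and reported GLI targets, were read from a list. Of these, 58 had enough gene body reads to test: with SNF5 10 rose and 13 fell (39.7% called, beside 34.5% of all genes), and with OmoMYC 4 rose and 6 fell (17.2%, beside 8.96%). SNF5 against OmoMYC called 6 higher and 6 lower (20.7%, beside 19.2%). The medians were 0.01, 0.00 and 0.01 on the log2 scale, beside -0.03, -0.00 and -0.01 over all genes. The list as a whole was thus called at a rate near that of the table in both SNF5 comparisons.

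Receptors and co-receptors carried the larger values. Of 6 tested, PTCH1 and HHIP included, 4 rose with SNF5 and none fell, beside 17.2% higher and 17.3% lower of all genes. With OmoMYC none was called, beside 8.96% of all genes. Besides PTCH1 and HHIP the risers were BOC and CDON, cell surface co-receptors that bind Hedgehog ligands together with PTCH1. In EGFP cells BOC was at 0.00336 ± 0.00143 RPKM, beside 0.00667 ± 0.00536 for ALB. BOC held 7, 11 and 8 gene body reads in EGFP, 16, 20 and 16 in OmoMYC, and 113, 79 and 113 in SNF5. All 3 SNF5 libraries stood far above the others, a log2 fold change of 3.39 ± 0.357 (adjusted p = 0.00023), and SNF5 exceeded OmoMYC by 2.40 ± 0.325 (adjusted p = 0.0012; 0.067 without the block). CDON, at 912, 882 and 1137 reads in EGFP, 1091, 947 and 991 in OmoMYC and 2862, 2290 and 2398 in SNF5, rose 2.32-fold (1.22 ± 0.097, adjusted p = 5.2e-05), a call that held under every alternative. GAS1 and LRP2 had too few reads to test, 12 and 59 over all 9 libraries.

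Of the 9 genes for ligands and their release, 2 rose and 1 fell with SNF5 (33.3%, beside 34.5% of all genes). With OmoMYC 2 rose and 1 fell as well (33.3%, beside 8.96%). The ligand genes had few reads: SHH had 2 to 39 gene body reads per library, IHH 6 to 55 and DHH 45 to 161. DISP1, which releases the lipid-modified ligand from the cell, rose with SNF5 (0.44 ± 0.081, adjusted p = 0.0036) and with OmoMYC (0.43 ± 0.081, adjusted p = 0.023), and HHAT, which palmitoylates the ligand, did so by 0.21 and 0.31. DISP2 fell with SNF5 (-0.71 ± 0.124, adjusted p = 0.003). SCUBE3, a secreted protein of the family that carries ligand, fell with OmoMYC (-0.54 ± 0.121, adjusted p = 0.032).

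Among 22 genes of signal relay and GLI control, SUFU included, 2 rose and 5 fell with SNF5 (31.8%, beside 34.5% of all genes). With OmoMYC 1 rose and 1 fell (9.09%, beside 8.96%). PRKACB, a catalytic subunit of protein kinase A, the kinase that primes GLI proteins for processing, rose with SNF5 (0.56 ± 0.091, adjusted p = 0.002) and with OmoMYC (0.39 ± 0.091, adjusted p = 0.036). GPR161, a ciliary receptor that keeps this kinase active, was called higher with SNF5 (0.54 ± 0.167, adjusted p = 0.035), with folds of 1.87, 1.76 and 0.958 in replicates 1 to 3, so replicate 3 did not show the rise. ARRB2, a beta-arrestin linked to SMO trafficking, fell (-0.44 ± 0.106, adjusted p = 0.012), as did IQCE (-0.38, adjusted p = 0.0013) and EVC2 (-0.15, adjusted p = 0.041), which act with SMO at the base of the cilium. Of 12 cilium genes, 2 rose and 2 fell with SNF5 (33.3%, beside 34.5%). With OmoMYC 1 rose and 1 fell (16.7%, beside 8.96%), and all these changes were under 0.5 on the log2 scale. TTBK2, the kinase that starts cilium assembly, rose by 0.49 with SNF5 and 0.42 with OmoMYC, while IFT88 and IFT122, subunits of intraflagellar transport, fell by 0.28 and 0.27 with SNF5.

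Reported GLI target genes did not move together. Of 18 listed, 13 could be tested: 2 rose and 5 fell with SNF5 (53.8%, beside 34.5% of all genes). With OmoMYC 3 fell and none rose (23.1%, beside 8.96%). PDGFRA, a growth factor receptor, rose with SNF5 by 0.62 ± 0.123 (adjusted p = 0.0051), from 458, 371 and 453 reads in EGFP to 775, 810 and 605. JAG2, a Notch ligand, fell (-0.68 ± 0.095, adjusted p = 0.00096), and the cyclin gene CCND2 fell both with SNF5 (-0.32 ± 0.097, adjusted p = 0.03) and with OmoMYC (-0.46 ± 0.097, adjusted p = 0.028). CCND1 fell with OmoMYC (-0.35 ± 0.078, adjusted p = 0.031) and was at 0.07 ± 0.077 with SNF5 (adjusted p = 0.5). FOXF1, HSD11B2, MYCN, NKX2-2 and SFRP1 had at most 86 reads over all libraries and were not tested.

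Calls of these pathway genes other than the 7 members differed in how well they held. With SNF5 against EGFP, BOC and CDON were called under all 17 alternatives, while DISP2, PRKACB, IQCE, TTBK2 and JAG2 each lost the call in 1, the fit without the block. PDGFRA lost it in 2, DISP1 in 3 and IFT122 in 4. ARRB2 lost the call in 7 of the 17, CCND2 in 8, IFT88 in 9, HHAT in 10, GPR161 in 11 and EVC2 in 13. The OmoMYC calls of DISP1, HHAT, SCUBE3, PRKACB, TTBK2, CCND1 and CCND2 were each lost in 7 to 9 of the 17.

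**Figure D4:**
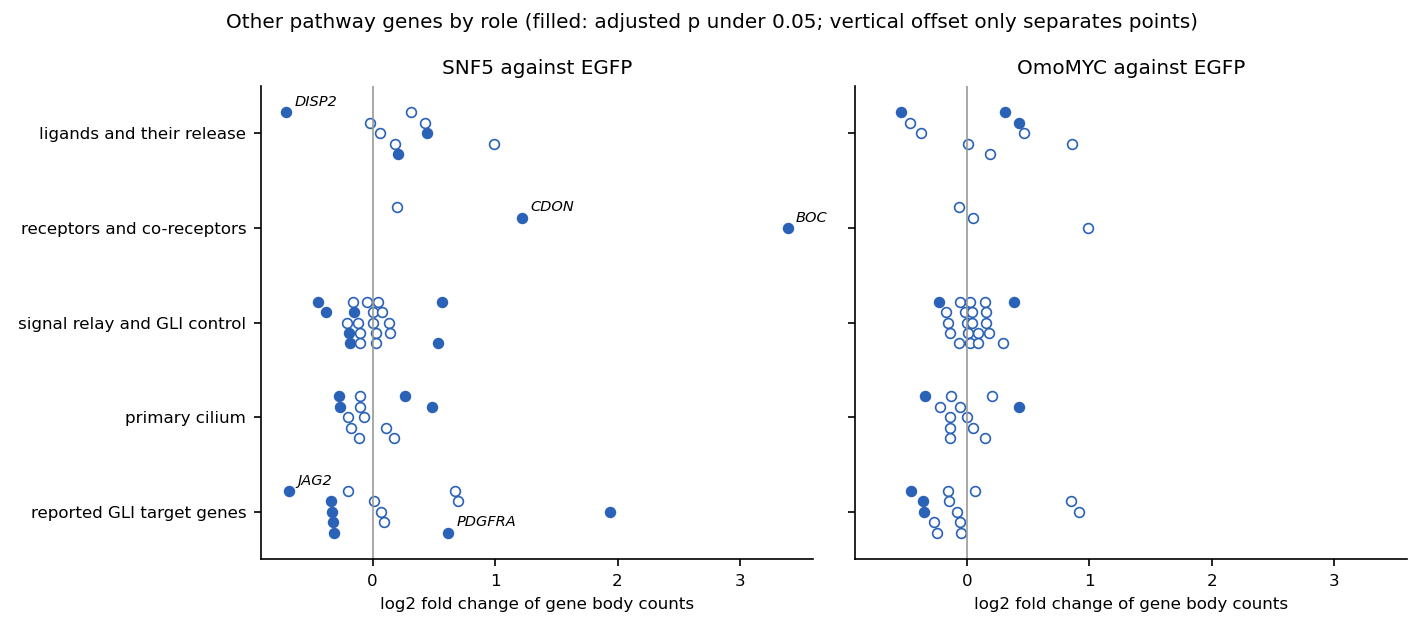
Log2 fold changes of gene body counts of the 58 tested pathway genes other than the 7 members, by role, with SNF5 (left) and OmoMYC (right) against EGFP; filled points passed an adjusted p of 0.05, only some points are labeled, and the vertical offset carries no value. BOC at 3.39 and CDON at 1.22 stand out among receptors and co-receptors with SNF5, while relay and cilium genes stay within 0.6 of zero.

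The genes whose gene body profile was most like that of PTCH1 over the 9 libraries, after the mean of each replicate number was subtracted, were TRIM24 (Pearson r = 0.994), PKP4 (0.993) and TRAK2 (0.991). For GLI1 they were MEN1 (0.994), TATDN3 (0.993) and MLXIP (0.991). The 9 points share 3 replicate numbers and 3 constructs, so these coefficients describe likeness only. PKP4 rose by 0.26 and TRIM24 by 0.32 with SNF5 on the log2 scale, against 0.49 for PTCH1, and MEN1 fell by 0.32 against 0.64 for GLI1.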

How the data were processed

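The deposited PRO-Seq table gave raw read counts per RefSeq transcript. The authors had trimmed reads with cutadapt, reverse complemented those over 15 bases, aligned them to hg19 with Bowtie2, dropped reads on rRNA loci or with mapping quality under 10 and counted with NRSA. The table's deposited signal column, gene body reads per base, was not scaled for depth and was used only to check gene body length. The authors called peaks per sample with MACS2 (ATAC-Seq on hg38, q-value 0.001; MYC ChIP-Seq on hg19, q-value 0.01). The deposited peak files give a fold enrichment ratio and -log10 p-values and q-values, and the submitters' processing notes also name DiffBind and HOMER. The OmoMYC ChIP-Seq lists held only 1 line each, with the same position and values in both and a peak name that ends in fake, and were read as no peak. IgG samples were not analysed here. The authors' own comparisons were not used.

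Counts were fitted with edgeR 4.0.16 (quasi-likelihood, robust; R 4.3.3) on all 9 libraries, with RLE factors from gene body counts, construct and replicate number as terms, genes with a mean of at least 10 counts and Benjamini-Hochberg adjustment over all genes tested. The pausing index was the interaction of region with construct, with a term per sample. The study describes its replicates as biological, but the labels do not say that each had its own selected pool. The p-values therefore measure only the spread between these samples, in the main fits what remains after the replicate number is fitted. Replicate numbers were taken to pair samples because same-numbered libraries correlated at 0.821 to 0.921 in every one of 9 pairs. The other 18 pairs gave -0.719 to 0.172. Values were deviations from construct means, which pushes those pairs downward, so they are not separate evidence of pairing. Log2 values for profile likeness used a pseudocount of 0.5 CPM. ATAC-Seq sites were peaks merged at 1 bp of overlap. Starts came from RefSeq and from GENCODE v44 lifted to hg19, whose records also carry their original GRCh38 positions; no coordinates were converted here. Counting intervals were not needed, as every tested value has replicates. The fits were also run on counts simulated under the model they assume. Such a run checks the fitting code and not whether the model holds for these data.

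The members and the gene lists were chosen with earlier results of these data known. Genes named beside the 7 members and SMARCB1 were those of a 72-gene pathway list past the threshold in any gene body comparison, at most 5 per role by size, and the 3 profiles most like PTCH1 and GLI1; SHH, IHH, DHH and the pausing of CDON were added after their values were seen. Values of some listed genes are not reported here. Alternatives were no replicate block, DESeq2 1.42.0, TMM factors, other filters, fits on 2 constructs, omission of each library or replicate number, and other peak rules.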

Additional observations from a re-analysis of the deposited data

How the results depend on the processing

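Without the replicate block, 1 member was called for SNF5 against EGFP and 0 in each of the other gene body comparisons, and 218, 1 and 73 genes were called in all for SNF5 against EGFP, OmoMYC against EGFP and SNF5 against OmoMYC, in place of 5195, 1350 and 2888. Leaving out libraries or replicate numbers gave 2 to 5, 0 to 2 and 2 to 5 members and 1426 to 8620, 2 to 6804 and 739 to 6296 genes, the highest each time without replicate 3. DESeq2 gave 2087 genes for OmoMYC against EGFP, and the fit on those constructs alone 2131. In promoter-proximal counts and pausing index such omissions gave 0 to 1 members in the comparisons with OmoMYC and 0 to 0 for SNF5 against EGFP, and SUFU passed in pausing index of SNF5 against OmoMYC with 2 constructs fitted (1 member). Over all genes, promoter-proximal calls (485, 186 and 94) became 311, 154 and 61 under DESeq2, 818, 300 and 256 without a filter, 405, 260 and 302 with 2 constructs and 0 without the block. With factors from promoter-proximal counts they became 1044, 239 and 120, and the median log2 fold change of OmoMYC against EGFP moved by -0.154 and that of SNF5 against OmoMYC by 0.147. Pausing index calls (418, 254 and 137) became 101, 68 and 40 under DESeq2, 273, 167 and 326 with 2 constructs and 0 without the block. Omissions gave 50 to 1345, 3 to 870 and 23 to 529 promoter-proximal calls and 7 to 969, 0 to 1074 and 6 to 582 in pausing index.

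HHIP with OmoMYC turned to 0.17 under DESeq2, and omissions moved it between -0.38 and 1.09. Other uncalled values that changed sign on omission were SMO gene body with OmoMYC (-0.08 to 0.01); GLI1 and SUFU promoter-proximal counts with SNF5 (-0.47 to 0.1 and -0.32 to 0.4); SMO promoter-proximal counts with OmoMYC (-0.13 to 0.68) and for SNF5 against OmoMYC (-0.25 to 0.36); and pausing index of SUFU with SNF5 (-0.41 to 0.11), SMO with OmoMYC (-0.09 to 0.65) and, for SNF5 against OmoMYC, GLI1 (-0.2 to 0.39) and SMO (-0.05 to 0.55). The cause was not tested. No called member changed sign under any alternative. ATAC-Seq sites gained with SNF5 numbered 0 with equal peak lists, 1 with a 10 kb flank, 6 by the 2 of 3 rule and 3 to 5 without 1 replicate number, for 2 as reported. MYC peaks in EGFP libraries numbered 1 with a 10 kb flank, for 8. GLI3, GLI2 and HHIP had the fewest reads, 98, 169 and 258 over the EGFP libraries.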

Other observations

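The co-receptor gene CDON also changed in the distribution of polymerase, a result chosen after its values were seen. Of 49 pathway genes tested in pausing index, 3 were higher and 2 lower with SNF5 (CDON, CEP164, FOXM1, SNAI1 and TTBK2), beside 3.74% of all genes called, and SNAI1 was called with OmoMYC as well. The CDON promoter-proximal window held 8, 26 and 21 reads in EGFP and 10, 29 and 34 in OmoMYC. It held 4, 12 and 13 in SNF5, the lowest count of each replicate number, while CDON gene body counts rose. Whether this window lies at the canonical CDON start was not checked. By edgeR's quasi-likelihood test the promoter-proximal fall was not called against EGFP (-1.05 ± 0.367, adjusted p = 0.092). It was called against OmoMYC (-1.45 ± 0.353, adjusted p = 0.036). The pausing index was 18.5, 62.2 and 39.0 in EGFP and 2.95, 11.1 and 11.4 in SNF5. The log2 difference was -2.22 ± 0.379 (edgeR's quasi-likelihood test, adjusted p = 0.00012), and against OmoMYC it was -2.61 ± 0.36 (adjusted p = 2.5e-06). Without the replicate block the first was -2.25 (adjusted p = 1), and without replicate 2 it was -2.04 (adjusted p = 0.1). OmoMYC against EGFP gave 0.39 ± 0.33 (adjusted p = 0.62).

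BOC and CDON each held 1 ATAC-Seq site with a peak in all 3 SNF5 libraries and in no EGFP or OmoMYC library, of 4 and 5 sites at these loci. Over all sites 9.09% were gained with SNF5, whose peak lists were longer. The BOC site (chr3:113231890-113232171, GRCh38) lay 20473 bases into the gene from its canonical start, with fold enrichments of 7.19, 11.3 and 7.23 in SNF5 replicates 1 to 3. The CDON site (chr11:126007350-126007625) lay 55379 bases into that gene, at 7.16, 7.59 and 6.79. The CDON start was open in all 9 libraries, and the BOC start had a peak in SNF5 replicate 1 alone. Another site at the CDON locus (chr11:125923151-125923309) had peaks in EGFP replicates 1 and 2 and in no OmoMYC or SNF5 library. Whether these sites bear on transcription of either gene was not tested.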
